A study of Mus musculus with 6 samples.

Results

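The smooth muscle pair miR-143 and miR-145 was examined through 3 entries of a mouse microRNA (miRNA) array, mmu-miR-143-3p, mmu-miR-145a-5p and mmu-miR-145a-3p, out of 1247 miRNAs on it. They were chosen by their names in the array design, and the prefix mmu, for mouse, is left out below. The samples were kidneys of male mice of C57BL/6, a widely used inbred strain. Aged kidney came from mice of 20 months (3 arrays) and young kidney from mice of 2 months (3 arrays), with no other treatment or allele named in the labels. Each array received 1 RNA preparation labelled with a single dye. Nothing in the labels links a preparation to 1 animal, so the tests reflect variation among preparations, part of which may be technical.

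miR-143 and miR-145 are processed from 1 primary transcript, whose expression in the adult mouse is strongest in smooth muscle and in pericytes of vessels and hollow organs. The transcription factor SRF with its partner myocardin drives that transcript. The pair is known to favour the contractile state of vascular smooth muscle, with KLF4, KLF5 and ELK1 among its targets. Each hairpin can release a 5p and a 3p strand, of which miR-143-3p and miR-145a-5p are the usual guide strands. Kidney contains such cells in arteries, arterioles and the perivascular wall. In whole tissue, fewer cells of a type and less RNA per cell cannot be told apart.

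Levels are given as log2 of the spot intensity relative to the array's 75th percentile of detected probes, so that 0 is that percentile. Between 177 and 209 miRNAs per array were well above background, a mark set by the scanner software. The 193 miRNAs that carried it on all arrays of at least 1 age were tested. Arrays of the same age differed by more than the noise between spots for 58.7 to 80.6% of the 315 probes detected throughout, so no pair was a repeat of the same values. They were counted as separate because the labels list them so, and this comparison does not tell repeat hybridizations of 1 RNA from separate samples. All 6 arrays lay on 1 slide, with the young arrays and aged array 1 in row 1 and aged arrays 2 and 3 in row 2.

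Both guide strands were measured in every preparation and stood lower in aged kidney by similar amounts, although the sign turned under 1 other scaling given below. miR-143-3p, the guide strand of miR-143, stood at -1.04, -0.99 and -1.11 (log2 level) on aged arrays 1 to 3, against -0.62, -0.85 and -0.85 on young arrays 1 to 3. No aged array reached the lowest young one, and young array 1 lay above the other two young arrays. The mean was -1.05 ± 0.06 in aged kidney and -0.77 ± 0.14 in young kidney (SD, n = 3 each). The aged minus young difference was -0.27 ± 0.09 (log2, SE), a level 1.21-fold lower in aged kidney.

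miR-145a-5p, the guide strand of miR-145, showed a difference of the same size from a level nearer the detection limit. It stood at -3.59, -3.72 and -3.46 (log2 level) on aged arrays 1 to 3, against -3.27, -3.42 and -3.33 on young arrays 1 to 3. The ages were again apart, although aged array 3 and young array 2 came within the spread of either group. The mean was -3.59 ± 0.13 in aged kidney and -3.34 ± 0.08 in young kidney (SD, n = 3 each). The aged minus young difference was -0.25 ± 0.09 (log2, SE), a level 1.19-fold lower in aged kidney.

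Neither difference passed the threshold of 0.05 over all tested miRNAs. The limma adjusted p was 0.12 for miR-143-3p (unadjusted 0.0249) and 0.149 for miR-145a-5p (unadjusted 0.0354). Over all tested miRNAs, 7.77% passed the adjusted threshold in either direction, 3.63% passed it with lower aged values, and 25.4% had an unadjusted p under 0.05. The 95% interval of the difference, without adjustment, ran from -0.50 to -0.05 for miR-143-3p and from -0.48 to -0.02 for miR-145a-5p. Non-overlap with aged values below was found for 39 of the 193 miRNAs (20.2%), and with aged values above for 10.4%, so non-overlap of this kind was common on these arrays. Across the tested miRNAs the median difference was -0.08, and relative to it miR-143-3p stood at -0.19 and miR-145a-5p at -0.17.

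The sign of both differences depended on the scaling between arrays: with the 75th percentile taken over all non-control probes they were 0.14 for miR-143-3p and 0.16 for miR-145a-5p, where the median of all tested miRNAs shifted by 0.41. Relative to the median of all tested miRNAs both stayed negative under each scaling, background correction and the authors' values, from -0.19 to -0.14 for miR-143-3p and from -0.17 to -0.06 for miR-145a-5p. Blocking on slide row left differences of -0.27 and -0.25 (limma adjusted p = 0.356 and 0.415). Row 2 holds aged arrays alone, so that estimate is by construction the contrast of aged array 1 with the 3 young arrays within row 1, where the fit of these 4 arrays gave a limma adjusted p of 0.204 for miR-143-3p and 0.199 for miR-145a-5p, with the lone aged array assumed to vary like the young ones.

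**Figure D1:**
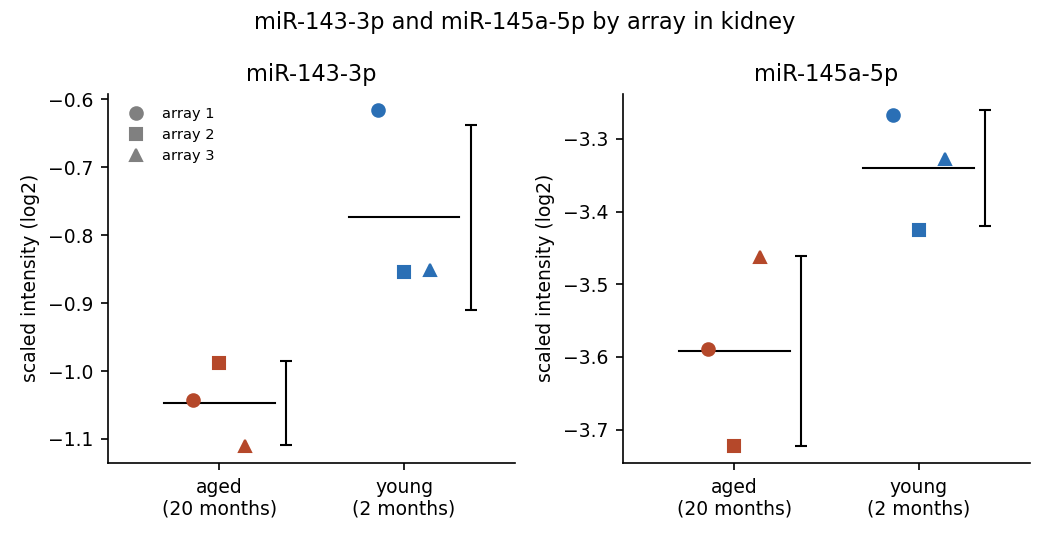
Log2 scaled intensity (vertical axis) of miR-143-3p and miR-145a-5p on each of the 3 aged and 3 young arrays, with the group mean as a line and the SD as a bar beside it. With this scaling all aged points lie below all young points in both panels, and the mean differences turn positive (0.14 and 0.16) with the 75th percentile over all non-control probes. Young array 1 holds the highest value of each.

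Each guide strand was read by a pair of probes, each spotted 20 times, and the probes gave like differences. For miR-143-3p the aged minus young difference was -0.29 ± 0.09 (log2, SE) on probe A_54_P2405 and -0.25 ± 0.10 on probe A_54_P2404. The limma adjusted p over the 354 probes tested was 0.116 for the first and 0.207 for the second, where 5.37% of probes passed. On both probes the aged arrays lay below the young ones without overlap, as was so for 20.2% of all tested miRNAs. The share among all probes was not counted. The log2 levels of the 2 probes followed each other over the 6 arrays with r = 0.90, a description that shares the arrays and their scaling.

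For miR-145a-5p the difference was -0.23 ± 0.10 on probe A_54_P2315 and -0.27 ± 0.08 on probe A_54_P2314 (limma adjusted p = 0.242 and 0.102 over the tested probes). On the first of these the ages overlapped, since aged array 3 at -4.05 lay above young array 2 at -4.07 (log2 level). On the second the young arrays lay close together, from -4.90 to -4.88, and the aged ones ranged from -5.28 to -5.03. For the fit, its aged arrays 1 and 2, at -5.22 and -5.28, were raised to the floor of -5.22 used in processing. The difference of this probe, its SE and its r with the other probe thus rest in part on that floor. That probe was near the detection limit, with 35 to 100% of its spots marked well above background on an array. The levels of these 2 probes followed each other with r = 0.85 over the 6 arrays.

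The spread between repeat spots shows how finely each strand was read. The coefficient of variation over spots of a probe was 2.93 to 17% for miR-143-3p and 9.02 to 28.6% for miR-145a-5p. The standard error of a probe's mean on an array was 0.01 to 0.05 (log2) for miR-143-3p and 0.03 to 0.09 for miR-145a-5p. Both age differences were thus larger than the error of reading a single array, and the spread between arrays set their precision. With outlier spots kept, the difference of miR-145a-5p was -0.37 ± 0.10 (limma adjusted p = 0.0638).

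**Figure D2:**
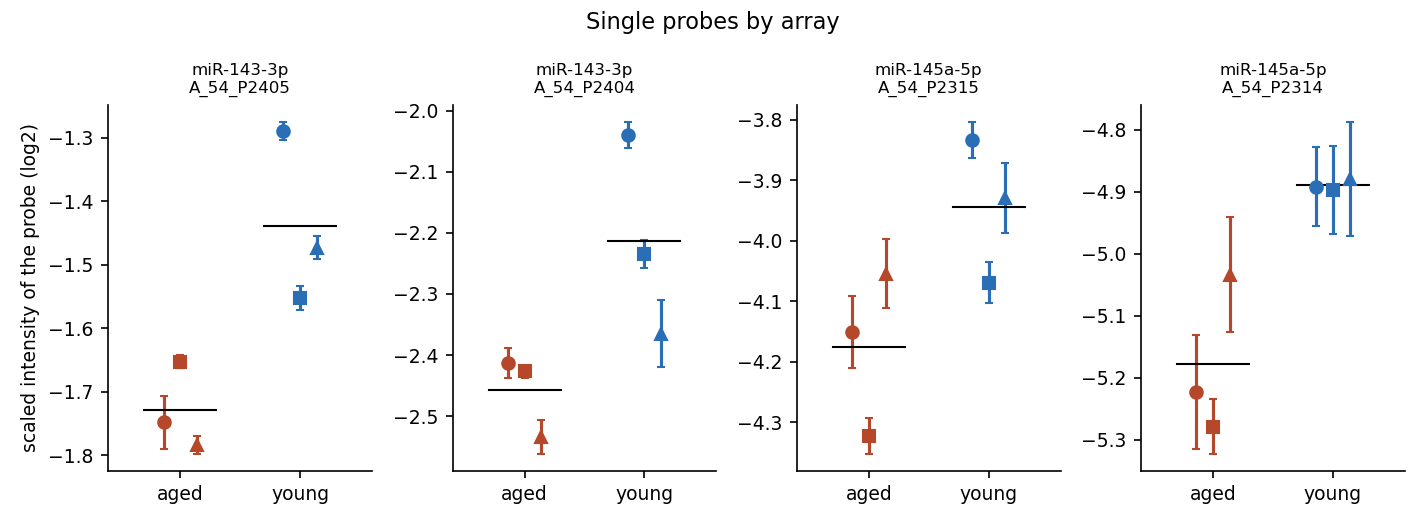
Log2 scaled intensity (vertical axis) of the 4 single probes for miR-143-3p and miR-145a-5p on each aged and young array, with error bars for the standard error over repeat spots and the group mean as a line. Array numbers 1 to 3 are drawn as circle, square and triangle. Aged values lie below young values on 3 of the 4 probes and overlap on A_54_P2315. Over all tested miRNAs, 20.2% had aged values below without overlap.

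miR-145a-3p, the passenger strand of miR-145, was not well above background on any of the 6 arrays. Its 4 probes averaged -0.51, 1.32 and -0.76 intensity units on aged arrays 1 to 3, against 1.69, 2.86 and 1.41 on young arrays 1 to 3. Negative control spots had medians of 2.36 to 3.34 on the same arrays, so the strand's signal did not stand out from them at either age. Of its 240 spots over all arrays, 1 was marked well above background. The weaker mark of a positive and significant signal was carried by 15 to 17.5% of its spots on aged arrays and by 17.5 to 22.5% on young arrays. Among negative control spots that share was 23.7 to 29.1%. No difference or fold is given for this strand, and its absence from the tissue cannot be read from these values.

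2 related entries of the array were likewise not well above background on any array. miR-145b, which is annotated as a separate miRNA, averaged -1.66 to 3.06 intensity units over its spots. miR-143-5p, the passenger strand of miR-143, averaged 5.74 to 11.4 units, nearly all of it on 1 of its 2 probes. The guide strands were the entries of these hairpins that were marked well above background.

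Because both guide strands come from 1 transcript, their ratio within an array was compared between ages. The log2 ratio of miR-145a-5p to miR-143-3p was -2.55, -2.73 and -2.35 on aged arrays 1 to 3, against -2.65, -2.57 and -2.48 on young arrays 1 to 3. The aged arrays spanned a range that held all the young ones. The ratio averaged -2.54 ± 0.19 in aged kidney and -2.57 ± 0.09 in young kidney (SD, n = 3 each). The difference was 0.02 ± 0.12 (SE), with an exact two-sided permutation p of 0.9 over 20 divisions of the arrays, where the smallest p the design allows is 0.1. Its 95% interval ran from -0.32 to 0.36, so a moderate change of the ratio in either direction is within the error. The ratio does not depend on a scaling that divides each array by 1 number.

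Over the 6 arrays the levels of miR-143-3p and miR-145a-5p correlated with Pearson's r = 0.70 (exact permutation p = 0.118) and Spearman's rho = 0.77 (exact permutation p = 0.103). After each age's mean was subtracted, r was 0.03 (exact permutation p = 0.958) and rho 0.09 (exact permutation p = 0.919). The pooled value therefore reflects mainly the separation of the ages, and no correlation was measurable over the 6 arrays once the age means were removed. Among aged arrays, array 2 had the highest miR-143-3p and the lowest miR-145a-5p, and array 3 the reverse. Among young arrays both strands were highest on array 1 and lowest on array 2, with miR-143-3p at -0.85 on arrays 2 and 3 alike. The value near 0 thus combines opposite orders in the 2 ages. Without young array 1 and aged array 3, the arrays farthest from the median of miR-143-3p, r was 0.83 over 4 arrays. The 4 permutation p-values had Benjamini-Hochberg adjusted values of 0.236 for the pooled measures and 0.958 within ages. Under 2 other scalings r was larger. It was 0.94 when all non-control probes set the percentile (exact permutation p = 0.0208) and 0.96 without scaling between arrays (exact permutation p = 0.00556). Elsewhere it was smaller, at 0.42 with the median over detected probes and 0.52 under quantile normalization. With normexp background correction it was 0.51 and in the authors' values 0.56. The exact permutation p of these smaller values ran from 0.25 to 0.41. A scaling that divides each array by 1 number changes the 2 levels alike by a factor per array. Such a shared factor can by itself raise or lower r. Without scaling that factor is the array's brightness, whose 75th percentile ran from 1171 units (aged array 1) to 2054 (aged array 2). Other pairs were not compared there, so these values are not read as co-variation of the pair.

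**Figure D3:**
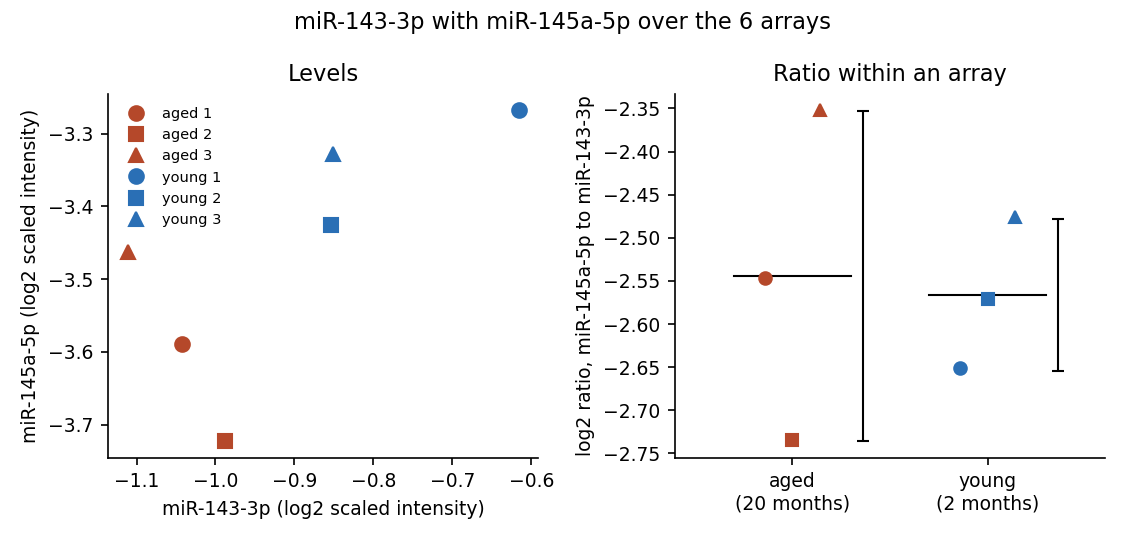
Left, log2 scaled intensity of miR-143-3p (horizontal axis) against miR-145a-5p (vertical axis), 1 point per array. Right, log2 ratio of miR-145a-5p to miR-143-3p on each aged and young array, with group mean and SD. The ages separate along both axes at left, while at right the 3 young ratios lie inside the range of the 3 aged ones.

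miR-145a-5p was not the miRNA whose pattern was most like that of miR-143-3p. Ranked by Pearson's r of log2 level over the 6 arrays, it stood at place 22 of 192 for miR-143-3p, and miR-143-3p stood at place 45 of 192 for miR-145a-5p. The median r over those 192 was 0.16 for miR-143-3p and 0.40 for miR-145a-5p. These values describe 6 arrays that share 1 slide and 1 scaling, and carry no test.

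The closest patterns to miR-143-3p were those of miR-451a (r = 0.96), a miRNA of red blood cells, miR-148a-3p (0.94), miR-141-3p (0.91), which belongs to the miR-200 family of epithelia, and miR-19a-3p (0.88), a member of the miR-17 cluster. With the age means subtracted, r was 0.88 with miR-451a, 0.76 with miR-148a-3p, 0.65 with miR-141-3p and 0.51 with miR-19a-3p. The closest to miR-145a-5p were miR-378c (0.94, and 0.81 with the age means subtracted), miR-181b-5p (0.93 and 0.78), miR-455-3p (0.92 and 0.77) and miR-3107-5p (0.92 and 0.74). RefSeq lists the hairpin of the last also as mir-486b, whose mature strand is abundant in red blood cells. The 8 were picked for likeness to strands that separate the ages, which leaves little room for another direction, and with this scaling the mean of all 8 was lower in aged kidney. Their differences ran from -0.87 for miR-455-3p to -0.26 for miR-19a-3p, given as a description. Mature sequences from RefSeq (GRCm38.p6) were found for 7 of the 8 and are shown to let their seeds be compared, with the seed, bases 2 to 8 from the 5′ end, in capitals.
miR-451a: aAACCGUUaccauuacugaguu
miR-148a-3p: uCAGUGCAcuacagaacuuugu
miR-141-3p: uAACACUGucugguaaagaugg
miR-19a-3p: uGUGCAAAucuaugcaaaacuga
miR-378c: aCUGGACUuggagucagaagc
miR-181b-5p: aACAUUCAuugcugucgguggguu
miR-455-3p: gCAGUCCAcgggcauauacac
The 7 hold 7 different seeds.

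Other miRNAs known from the control of vascular smooth muscle state lay on both sides of 0. Of 15 listed, 14 were on the array and 10 were tested. By limma 0 passed over all miRNAs and 2 had an unadjusted p under 0.05, beside 25.4% of all tested miRNAs. Their median difference was 0.10, beside -0.08 for all tested miRNAs, and was positive under all 6 other scalings and corrections (0.07 to 0.52). miR-130a-3p, described as a promoter of smooth muscle proliferation, stood at 0.30 ± 0.10 (log2 difference, SE) with a limma adjusted p of 0.1. miR-146a-5p, shared with the leukocyte markers, had a difference of 0.24 ± 0.09 (limma adjusted p = 0.14). For both, the aged arrays lay above the young ones without overlap, as was so for 10.4% of all tested miRNAs.

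The better known members of that list moved little. miR-221-3p and miR-222-3p, a clustered pair linked to proliferating smooth muscle, stood at 0.13 ± 0.08 and -0.00099 ± 0.13, the second with either sign depending on the scaling. miR-21a-5p, also induced in injured vessels, stood at 0.08 ± 0.09. miR-100-5p had the lowest difference of the list, at -0.16 ± 0.08 (limma adjusted p = 0.239). Its aged values lay below the young ones without overlap, as did those of 20.2% of all tested miRNAs. The difference was positive with the 75th percentile of all non-control probes and without scaling (up to 0.25). The remaining tested members were miR-26a-5p at 0.15 ± 0.09, miR-365-3p at 0.13 ± 0.08, miR-24-3p at 0.02 ± 0.08 and miR-195a-5p at -0.03 ± 0.07, whose sign turned under 5 of the 6 other scalings and corrections. The striated muscle miRNAs miR-133a-3p, miR-133b-3p, miR-206-3p, miR-208a-3p, miR-208b-3p and miR-499-5p were not well above background on any array, and miR-1a-3p was on 4 of the 6. None of these 7 was tested.

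Of 7 tested mesenchymal and stromal miRNAs, 2 rose and 0 fell past the threshold, beside 8 that rose and 7 that fell among all 193 tested. Their median difference was 0.30, which turned to -0.03 with normexp background correction. miR-199a-3p, abundant in mesenchymal cells, had a difference of 0.40 ± 0.09 and its opposite arm miR-199a-5p one of 0.34 ± 0.06 (limma adjusted p = 0.0391 and 0.0258), both positive under all 6 other scalings and corrections. The summed scaled level of this list was 5.28 to 5.68 on aged arrays and 4.97 to 5.62 on young arrays. The log2 ratio of miR-143-3p to miR-199a-3p was -1.62 ± 0.05 in aged kidney and -0.94 ± 0.20 in young kidney (SD, n = 3 each), a difference of -0.68 with no overlap. For miR-145a-5p to miR-199a-3p it was -4.17 ± 0.23 in aged kidney and -3.51 ± 0.12 in young kidney, a difference of -0.66 with no overlap. miR-199a-3p and the other miRNAs set against the pair here were taken from the 2 smallest age p-values of their lists. Where that p is small, the choice in large part fixes the direction of such a ratio. It was not small for miR-126-3p, miR-23a-3p and miR-192-5p (limma unadjusted p = 0.33, 0.21 and 0.245). All the ratios reuse the pair's own levels and are a description with no test.

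The 3 tested endothelial miRNAs had a median difference of 0.08, and of -0.01 under quantile normalization, with 0 past the threshold by limma and 0 at an unadjusted p under 0.05, and summed levels of 11.54 to 12.16 on aged arrays and 10.70 to 11.71 on young arrays. Against miR-126-3p, an endothelial miRNA at 0.08 ± 0.08 (-0.03 under quantile normalization), the log2 ratio of miR-143-3p differed by -0.36 and that of miR-145a-5p by -0.34 between aged and young kidney, without overlap. Against miR-23a-3p, at 0.11 ± 0.08, the differences were -0.38 and -0.36.

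Red blood cell miRNAs stood lower in aged kidney along with the pair. Their 3 tested members had a median difference of -0.56, negative under all 6 other scalings and corrections (-0.47 to -0.15), with 0 past the threshold by limma and 3 at an unadjusted p under 0.05. Their summed scaled level was 6.37 to 7.17 on aged arrays and 8.37 to 9.39 on young arrays, without overlap. Most of that sum was miR-451a, at a mean log2 level of 2.69 in aged and 3.03 in young kidney. miR-451a had a difference of -0.34 ± 0.08 (limma adjusted p = 0.0528), which was 0.07 when all non-control probes set the percentile, and the log2 ratio of miR-143-3p to it was -3.74 ± 0.06 in aged kidney and -3.81 ± 0.04 in young kidney. The difference in that ratio was 0.07, and the ages overlapped. For miR-145a-5p the ratio to miR-451a differed by 0.09, also with overlap. miR-3107-5p fell further than the pair, at -0.56 ± 0.14. Relative to it the log2 ratio differed by 0.29 for miR-143-3p, with overlap. For miR-145a-5p it differed by 0.31, with aged values above the young ones without overlap. The part of blood content in the differences of miR-143-3p and miR-145a-5p was not tested.

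The 5 tested leukocyte miRNAs had a median difference of 0.38 and summed levels of 0.978 to 1.17 on aged arrays and 0.767 to 0.876 on young arrays, with 0 past the threshold by limma and 3 at an unadjusted p under 0.05. For this list and the next, the shares over all tested miRNAs were 7.77% past the threshold and 25.4% at an unadjusted p under 0.05. Relative to miR-223-3p, known from myeloid cells, miR-143-3p differed by -0.82 and miR-145a-5p by -0.80 (log2 ratio). The 3 tested renal tubule miRNAs had a median difference of 0.14, with 0 past the threshold by limma and 1 at an unadjusted p under 0.05, and summed levels of 6.48 to 7.90 on aged arrays and 5.97 to 6.85 on young arrays. Relative to the tubular miR-192-5p the differences were -0.42 and -0.40. Relative to miR-200c-3p of the epithelial miR-200 family they were 0.06 and 0.08, with overlap. Of the 5 tested epithelial miRNAs 1 fell past the threshold, beside 3.63% of all tested miRNAs. It was miR-141-3p, at -0.38 ± 0.08 (limma adjusted p = 0.0415), and at 0.03 when all non-control probes set the percentile. The list had a median difference of -0.18, which was positive under that scaling and without scaling (up to 0.24), and summed levels of 7.66 to 8.70 on aged arrays and 8.81 to 9.76 on young arrays.

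Set against every other tested miRNA, a comparison that uses only ratios within an array, miR-143-3p was lower without overlap in aged kidney relative to 60 of 191 (31.4%) and higher relative to 6 (3.14%). miR-145a-5p was lower relative to 79 of 191 (41.4%) and higher relative to 6 (3.14%). For most of the other miRNAs the ratio overlapped between ages. These counts reuse the levels behind the differences above, so they are not separate support. The same count was not made for other miRNAs, so what is usual on these arrays is not known. In the order of differences over all tested miRNAs, 25.5% had a lower difference than miR-143-3p and 28.1% a lower one than miR-145a-5p.

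**Figure D4:**
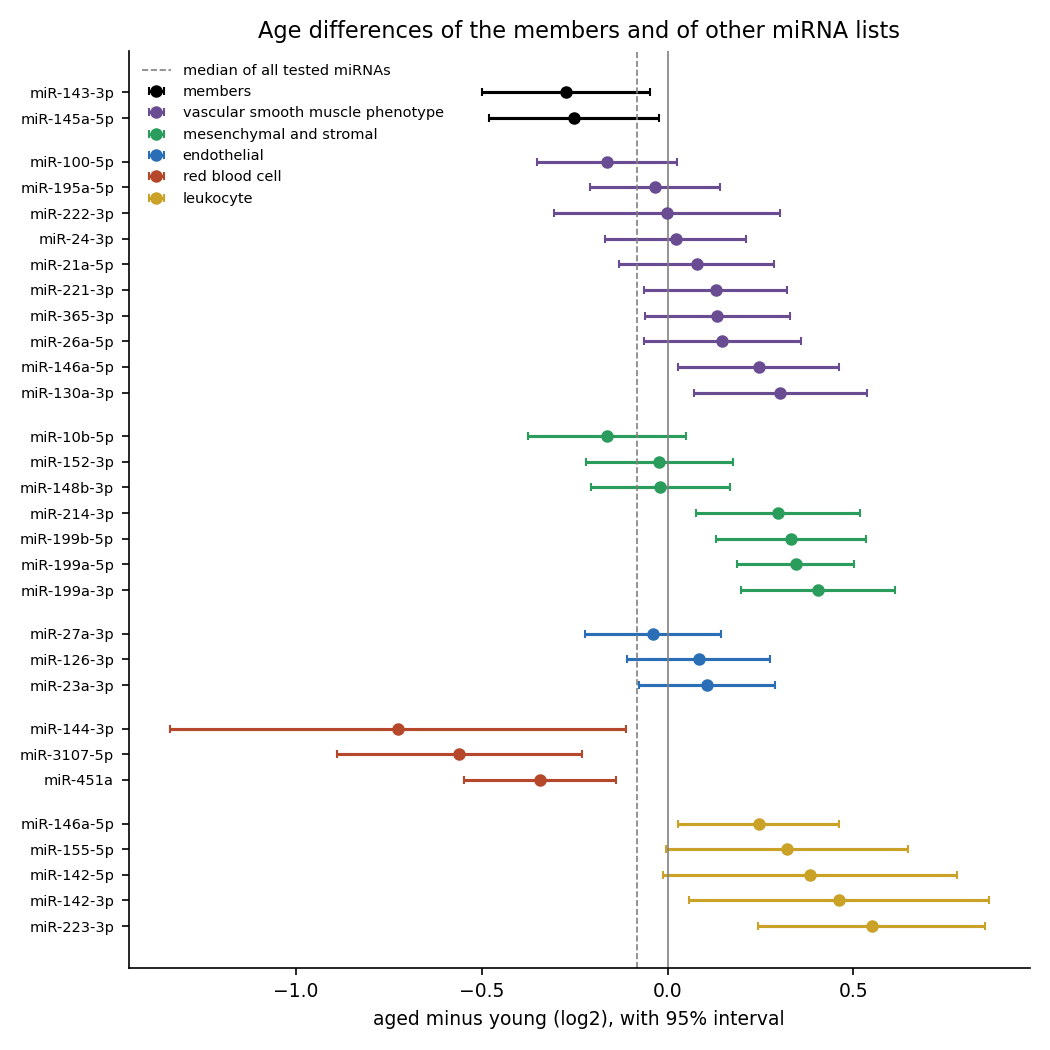
Aged minus young difference (log2, horizontal axis) with its unadjusted 95% interval for miR-143-3p, miR-145a-5p and the tested miRNAs of 5 lists, coloured by list, with a dashed line at the median of all tested miRNAs. The pair sits at -0.27 and -0.25, below most smooth muscle phenotype, stromal and endothelial miRNAs and above the 3 red blood cell miRNAs, on the scaling used in the text. With the 75th percentile over all non-control probes every plotted difference turns or stays positive except those of miR-144-3p and miR-3107-5p.

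**Figure D5:**
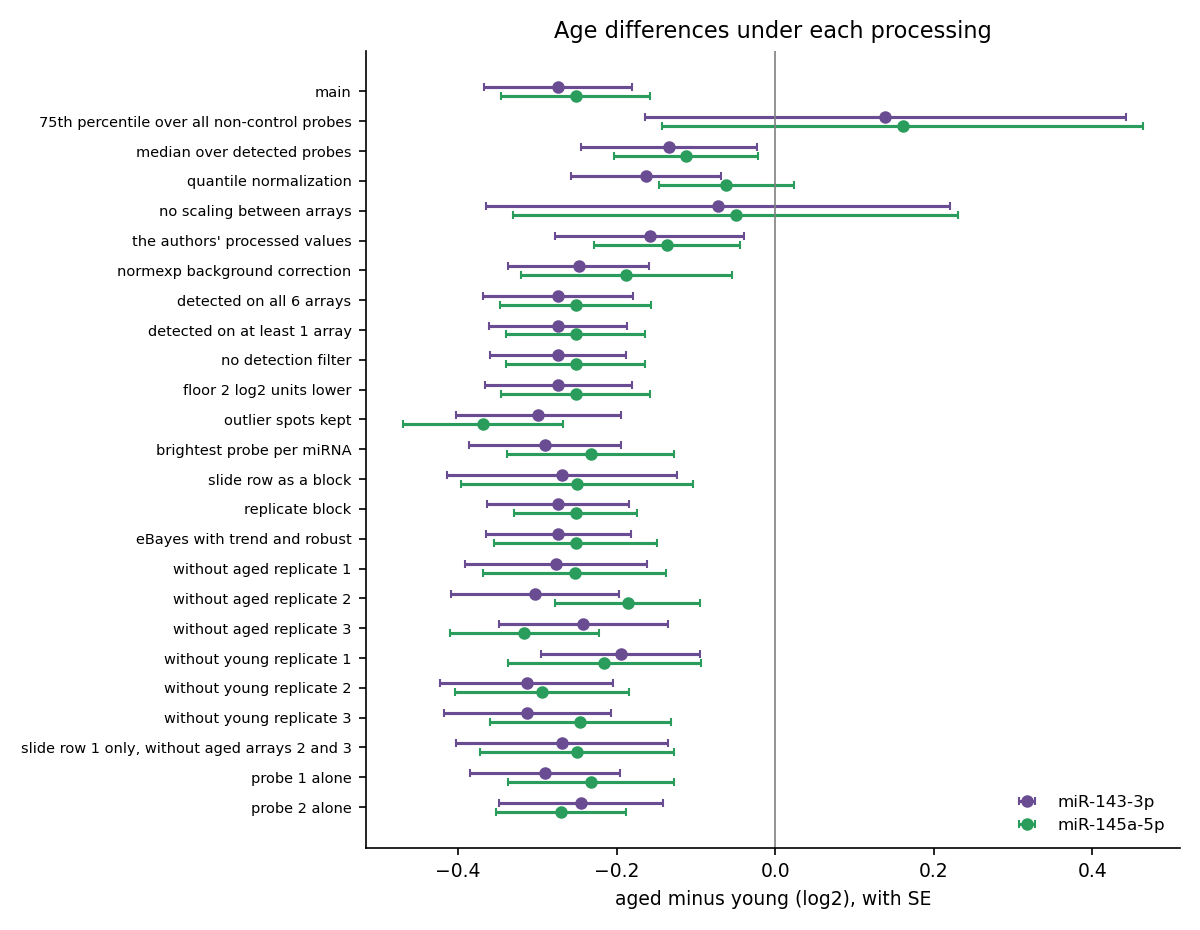
Aged minus young difference (log2, horizontal axis) with its SE for miR-143-3p and miR-145a-5p under each processing. The values lie between -0.37 and -0.05, apart from 0.14 and 0.16 with the 75th percentile over all non-control probes.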

How the data were processed

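Per the file headers, the arrays have design 046065 (build mm9) and the software was Feature Extraction 11.5.1.1. The deposited spot values are intensity, from which the software subtracted background, with no scaling across arrays. Deposited flags, per the file headers, are other values of 0 or 1 per spot. The authors' own table holds log2 values, centred per array on a statistic that no source used here gives. The processed intensity was averaged over non-outlier spots of a probe, scaled to the 75th percentile, per array, of the 315 probes detected throughout, summed per miRNA, raised to a floor of -5.22 (log2) and log2-transformed. A probe was detected if over 50% of its spots were marked. No spot was saturated (0 in all). The number of arrays limits the precision.

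The age term was fitted in R 4.3.3 by limma 3.58.1 (lmFit, eBayes, Benjamini-Hochberg, threshold 0.05) over 193 miRNAs. Single values used exact permutation tests. Input was read with jsonlite 2.0.0 and data.table, version 1.17.8, and figures drawn with matplotlib 3.10.9. On simulated data for the aged against young comparison with 193 miRNAs, 28.8% of planted differences of 0.3, 69% of 0.6 and 88.2% of 1.2 (log2) were called. Normexp, with an offset of 50, used the spot and background medians, because the files hold no spot means. Members, lists and tests were chosen with earlier results of these data known. The rule for naming took the members, their sister entries miR-143-5p and miR-145b, all tested miRNAs of the smooth muscle phenotype list, up to 2 per other list by p, and the 4 closest in pattern to each guide strand. miR-214-3p and other list members beyond that rule are shown in the figure alone. The untested striated muscle miRNAs were given to account for their list. miR-142-3p and miR-194-5p also came under the rule and are not described above.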

Additional observations from a re-analysis of the deposited data

Results flagged for a closer look

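The brighter probe of miR-143-5p, the passenger strand of miR-143, gave a low signal above the negative control spots of the same arrays, although no array marked it well above background. It averaged 12.8, 21.4 and 12.8 intensity units on aged arrays 1 to 3, against 20.0, 12.7 and 15.2 on young arrays 1 to 3, so its lowest value was 12.7. Negative control spots averaged 3.04 to 6.85 units, with a highest median of 3.34. Of its 20 spots per array, 75 to 95% on aged arrays and 70 to 95% on young arrays carried the mark of a positive and significant signal, where 23.7 to 29.1% of negative control spots did. With 0 to 5% of its spots marked well above background, no difference between ages is given. The other probe of this strand lay between -1.51 and 1.30 units.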

How the results depend on the processing

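The differences of miR-143-3p and miR-145a-5p stayed negative and short of the threshold under all alternatives with all arrays but 1: with the 75th percentile over all non-control probes they were 0.14 and 0.16. Leaving out 1 array gave -0.31 to -0.19 for miR-143-3p and -0.32 to -0.19 for miR-145a-5p, -0.07 to 0.12 for their log2 ratio and 0.49 to 0.85 for their correlation. That correlation passed an unadjusted 0.05 at 0.94 under that percentile and at 0.96 without scaling, where a factor per array shared by both levels enters it. It was lower, at 0.42, with the median over detected probes, and 0.51 to 0.56 with normexp, under quantile normalization and in the authors' values. The number of miRNAs past the threshold, 15 (8 higher, 7 lower), was 2 without scaling (22 at an unadjusted p under 0.05), 4 with normexp (4 and 0), 6 without a detection filter, where 1247 were tested, 5 with slide row as a block and 3 with the replicate block, and 5 to 39 when 1 array was left out (39 without aged array 1, 23 without aged array 3, 9 without aged array 2, and 6, 5 and 8 without young arrays 1, 2 and 3). The cause was not tested. The split was 18 and 3 with the median over detected probes, 13 and 1 under quantile normalization and 10 and 0 in the authors' values. In the replicate block, which pairs arrays by number alone, the differences were -0.27 (limma adjusted p = 0.144) and -0.25 (0.137). Same-numbered arrays did not deviate together (correlations of 0.12, -0.58 and 0.31), and 1 of the 6 arrays correlated best with its own number. miR-145a-3p stayed below background on all arrays with outlier spots kept, so no alternative gave it a difference.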
